A study of Homo sapiens with 6 samples.

Results

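The genes described here encode the machinery that carries proteins into mitochondria. They were chosen by name: every gene of the table whose symbol starts with TIMM or TOMM followed by a digit, plus PAM16, GRPEL1, PMPCA and PMPCB, with pseudogenes left out. That gave 28 of the 26364 genes in the table, and no pseudogene had matched. The cells were MV4-11, an established line of human acute myeloid leukaemia that carries an internal tandem duplication in the receptor tyrosine kinase gene FLT3. Its genotype was the same in both groups. In 3 libraries (22d replicates 1 to 3) the cells had received 22d, known as an inhibitor of the deacetylase HDAC8, at 10 nM, and in 3 libraries (DMSO replicates 1 to 3) they had received the vehicle DMSO. Both groups were harvested after 18 hours. Nothing in the labels ties replicates to separate cultures, and the p-values therefore cover only the spread between these libraries, which may be technical.

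Nearly all mitochondrial proteins are encoded in the nucleus, made in the cytosol and imported. The TOM complex of the outer membrane recognises them through receptors and passes them through a channel. Proteins with a cleavable presequence then cross the inner membrane through the TIM23 complex, pulled by a motor on the matrix side, and a matrix protease removes the presequence. Metabolite carriers and other hydrophobic proteins are escorted through the intermembrane space by small TIM chaperones and inserted by the TIM22 complex. Growing leukaemia cells depend on this supply for respiration and for the synthesis of building blocks.

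Libraries held between 19995430 and 23749257 reads in genes. The values below are normalized counts, that is, reads divided by a size factor of the library, and 1 read was worth 0.839 to 1.14 normalized counts. By the number of genes with reads 22d replicate 3 stood apart, at 19285 against 16268 to 17055 in the other libraries, and without it 20 members fell and 1 rose, the same counts as with it. All 10 marker genes fixed for a monocytic leukaemia line, FLT3, CD33 and SPI1 among them, had reads in every library. Their sum lay at 64935 to 82565 normalized counts with DMSO and at 40268 to 50991 with 22d. Most of the list did not share that direction: LYZ and MPO fell, FLT3, CSF1R, ITGAM and PTPRC rose, 4 did not pass in limma, and the median log2 fold change was 0.25. Of 12 markers of other cell types, 3 to 9 had reads per library. Their sum was 129 to 179 normalized counts with DMSO and 92.2 to 158 with 22d. The T-cell gene CD3D and the B-cell gene MS4A1 were at 0 in all 6 libraries. The part of these differences in the results below was not tested.

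Most import genes had less RNA with 22d. Of the 27 members that averaged 10 normalized counts or more, 20 fell and 1 rose, at a Benjamini-Hochberg adjusted p under 0.05 from limma over all 13297 genes tested. Across all of those genes, 29.6% fell and 28.5% rose. The median log2 fold change was -0.96 over the members and 0.01 over all genes tested. In 20 members every 22d library lay below every DMSO library, and 33.3% of all genes tested were separated in this way. At least 2-fold falls were seen in 12 members, against 9.87% of all genes. The remaining member, TOMM20L, a paralog of the receptor gene TOMM20, was not tested because it held only 1 to 7 reads per library. In bulk RNA, fewer cells that express a gene and less RNA per cell cannot be told apart. With scaling by library totals the log2 median of all genes was 0.22, and 65.6% of all calls were higher, against 49.0% with the deposited scaling. The members' median was then -0.74, still below that of all genes, and 19 fell and 3 rose.

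**Figure D1:**
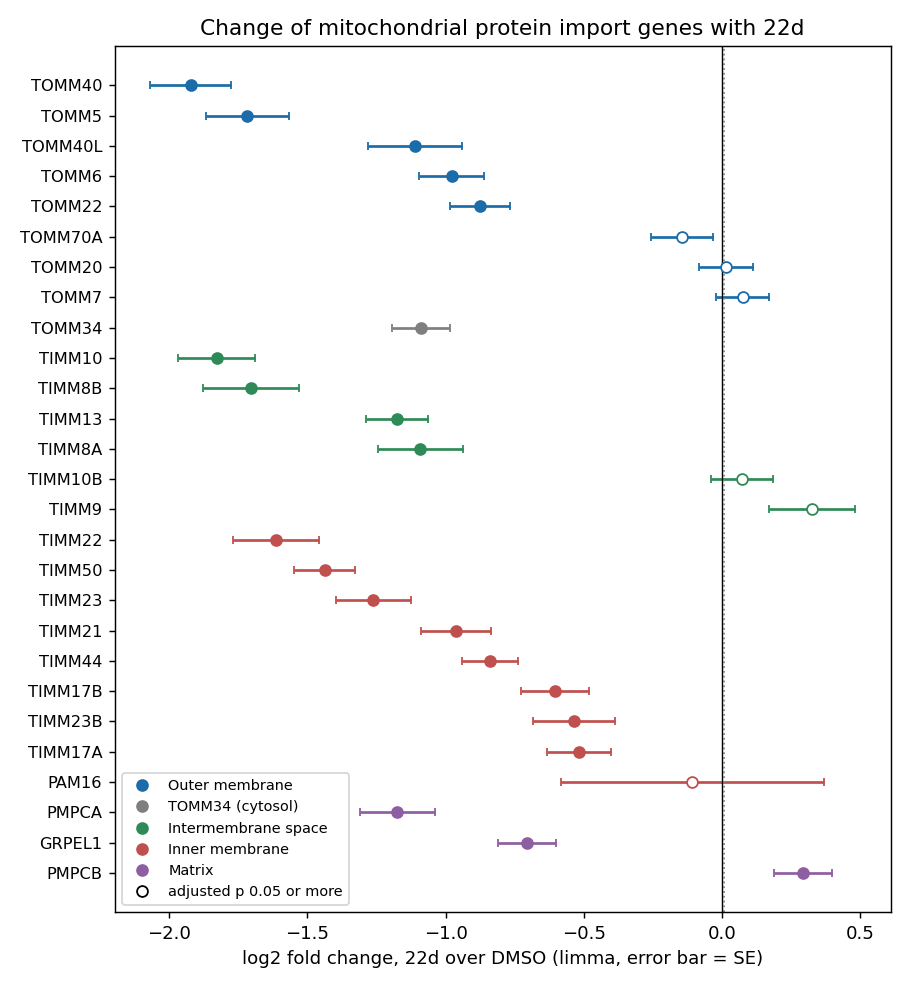
Log2 fold change of 22d over DMSO for the 27 tested import genes (points, with SE from limma as bars), coloured by compartment; open points did not pass an adjusted p of 0.05 and the dotted line is the median of all genes tested. Filled points run from -1.92 for TOMM40 to -0.52 for TIMM17A, and PMPCB at 0.29 is the filled point on the other side of 0.

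In the outer membrane, the channel gene TOMM40, its paralog, the small subunits TOMM5 and TOMM6 and the receptor TOMM22 fell, while the receptors TOMM20 and TOMM70A and the small subunit TOMM7 did not pass the test. TOMM40 encodes the channel through which nearly all imported proteins pass. Its DMSO libraries held 13348, 14236 and 11661 normalized counts and its 22d libraries 2660, 3763 and 4063. The groups lay far apart, 22d replicate 1 was the lowest library, and the 22d mean was 26.7% of the DMSO mean. At -1.92 ± 0.15 (SE, limma adjusted p = 3.66e-07) its log2 fold change was the largest fall among the members. TOMM5, a small subunit of the complex, was at 3036, 3027 and 2795 normalized counts in the DMSO libraries and at 678, 1031 and 1032 after 22d, which gave a log2 fold change of -1.72 ± 0.15 (SE) and a limma adjusted p of 1.08e-06. Again the groups did not overlap and 22d replicate 1 was lowest. TOMM6, another small subunit, fell by 0.98 on the log2 scale, with DMSO at 5394 ± 608 and 22d at 2736 ± 292 normalized counts (mean ± SD of 3 libraries). TOMM22, which encodes the central receptor that organises the complex, fell by 0.87, from 2732 ± 207 to 1490 ± 128 (SD, n = 3 each).

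TOMM20 encodes the main receptor for presequences. It was at 6112, 5797 and 6675 normalized counts in the DMSO libraries and at 6220, 6323 and 6184 after 22d, so the 22d libraries lay inside the DMSO range (log2 fold change 0.01, SE 0.10, limma adjusted p = 0.91). TOMM70A, also known as TOMM70, encodes the receptor for carrier precursors with internal signals. It was at 1985, 1872 and 2123 normalized counts in the DMSO libraries and at 1988, 1835 and 1598 after 22d (log2 fold change -0.14, limma adjusted p = 0.29). TOMM7, a small subunit that also takes part in PINK1 accumulation, was at 2080, 2096 and 2070 normalized counts in the DMSO libraries and at 2175, 2226 and 2174 after 22d. Every 22d library lay above every DMSO library, but the log2 fold change of 0.07 did not pass (limma adjusted p = 0.52). TOMM7 passed as higher with scaling by library totals (0.29, adjusted p = 0.018) and with quantile normalization (0.31, adjusted p = 0.010), and TOMM20 with quantile normalization (0.33, adjusted p = 0.021). In all, 5 of 8 tested outer membrane genes fell and 0 rose in limma; 0 were higher in edgeR, in DESeq2 or at an unadjusted p under 0.05. TOMM34, a cytosolic cochaperone named with this family, fell by 1.09 on the log2 scale, with DMSO at 1383 ± 28.3 and 22d at 650 ± 31.6 normalized counts (mean ± SD of 3 libraries).

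The channel gene has a paralog, TOMM40L, which fell by 1.11 ± 0.17 (SE) in log2 units at a limma adjusted p of 0.00011, with DMSO at 455 ± 15.7 and 22d at 214 ± 49.7 normalized counts (mean ± SD of 3 libraries). Its groups did not overlap. The ratio of TOMM40 to TOMM40L was 30.3, 30.2 and 25.7 in the DMSO libraries and 16.7, 14.7 and 17.9 in the 22d libraries. The ratio did not overlap between groups and changed by -0.81 on the log2 scale (two-sided exact permutation test over the 6 libraries, p = 0.10, the smallest that 3 against 3 libraries can give).

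Promoter sequences of an outer membrane pair are shown because both hold the same ETS-type element while TOMM6 fell and TOMM20 did not pass the test. They are the 250 bases upstream of the RefSeq start (GRCh38.p14, TOMM6 chr6:41787444-41787693 on the plus strand, TOMM20 chr1:235128838-235129087 on the minus strand). Capitals mark matches to the motifs listed further on, on either strand: in TOMM6 a pair of overlapping E-box variants at the far end and ETS elements starting 132 and 80 bases upstream, and in TOMM20 an E-box starting 168 bases and an ETS element starting 22 bases upstream.
TOMM6: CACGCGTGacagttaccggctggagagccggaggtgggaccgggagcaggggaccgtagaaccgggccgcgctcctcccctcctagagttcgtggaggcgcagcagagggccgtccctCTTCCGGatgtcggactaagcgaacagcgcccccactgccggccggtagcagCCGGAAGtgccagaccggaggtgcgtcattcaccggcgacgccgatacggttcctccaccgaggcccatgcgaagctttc
TOMM20: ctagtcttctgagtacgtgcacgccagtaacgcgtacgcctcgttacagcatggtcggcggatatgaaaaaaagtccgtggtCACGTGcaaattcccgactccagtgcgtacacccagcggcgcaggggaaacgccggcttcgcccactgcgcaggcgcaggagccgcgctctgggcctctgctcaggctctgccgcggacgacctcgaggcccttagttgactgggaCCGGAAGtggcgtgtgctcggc

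**Figure D2:**
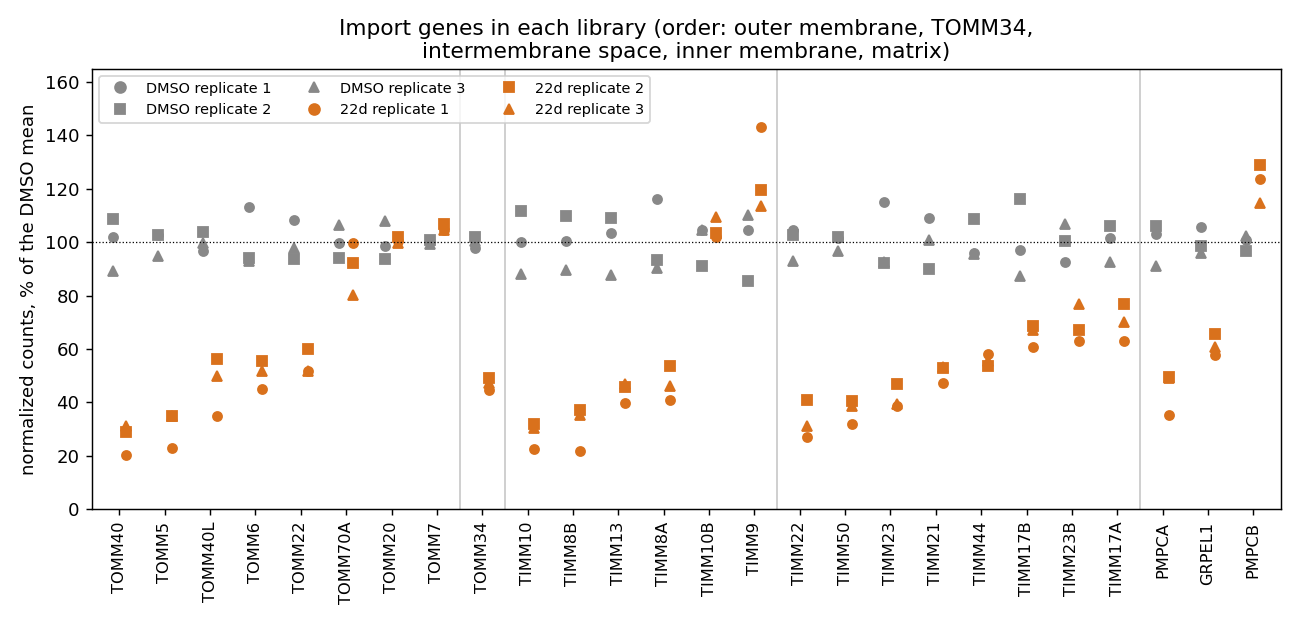
Normalized counts of the 26 import genes with a DMSO mean of at least 100, in each library, as % of the gene's DMSO mean (grey DMSO, orange 22d; one symbol per replicate number), ordered by compartment and separated by vertical lines. The 22d means of TOMM40 (26.7%) and TIMM10 (28.3%) are the lowest, followed by TOMM5 (30.9%) and TIMM8B (31.4%), and 22d replicate 1 (orange circle) is the lowest of the 22d libraries in 18 of the 20 genes that fell.

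Among the small TIM genes of the intermembrane space, 4 of 6 fell and 2 did not pass. TIMM10 and TIMM9 encode the chaperones that build one ring-shaped complex for carrier precursors. TIMM10 was at 3284, 3671 and 2892 normalized counts in the DMSO libraries and at 745, 1042 and 1001 after 22d, which gave a log2 fold change of -1.83 ± 0.14 (SE) and a limma adjusted p of 3.77e-07. The groups were far apart. TIMM9 was at 247, 202 and 260 normalized counts in the DMSO libraries and at 338, 282 and 268 after 22d. All 22d libraries of TIMM9 lay above all DMSO libraries, and its log2 fold change of 0.33 did not pass (SE 0.16, limma adjusted p = 0.089); with scaling by library totals it was 0.55 and passed (adjusted p = 0.015). The ratio of TIMM10 to TIMM9 was 13.3, 18.2 and 11.1 with DMSO and 2.20, 3.70 and 3.74 with 22d. This pair was picked after its values were seen, so the ratio is given without a test.

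TIMM8A and TIMM8B encode partners of TIMM13 in a second small TIM complex, and TIMM8A is the gene of the deafness-dystonia syndrome. TIMM8B was at 2082, 2276 and 1856 normalized counts in the DMSO libraries and at 453, 767 and 729 after 22d (log2 fold change -1.70, SE 0.17, limma adjusted p = 3.98e-06). Replicate 1 was again the lowest 22d library. TIMM13 fell by 1.18 on the log2 scale, with DMSO at 9057 ± 1011 and 22d at 4001 ± 344 normalized counts (mean ± SD of 3 libraries), and TIMM8A by 1.09, from 476 ± 67.4 to 223 ± 31.1 (SD, n = 3 each). TIMM10B, a small TIM bound to the TIM22 complex, averaged 811 ± 63.4 (SD, n = 3) normalized counts in DMSO and 850 ± 31.7 in 22d libraries, and its groups overlapped (limma adjusted p = 0.60). None of the 6 genes was called higher by limma, edgeR or DESeq2, and 0 were higher at an unadjusted p under 0.05.

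The promoters of TIMM10 (chr11:57530755-57531004, minus strand) and TIMM9 (chr14:58427532-58427781, minus strand) are shown because these partners of one complex differed. The same 250-base window was used. In TIMM10 the capitals mark ETS elements starting 55 and 13 bases upstream of the start, and in TIMM9 an NRF1-type element starting 128 bases upstream.
TIMM10: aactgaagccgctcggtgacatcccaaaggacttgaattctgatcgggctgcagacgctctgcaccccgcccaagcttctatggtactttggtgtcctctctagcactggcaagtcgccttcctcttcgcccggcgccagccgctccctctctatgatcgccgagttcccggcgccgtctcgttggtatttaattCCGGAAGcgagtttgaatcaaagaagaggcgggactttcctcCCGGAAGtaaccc
TIMM9: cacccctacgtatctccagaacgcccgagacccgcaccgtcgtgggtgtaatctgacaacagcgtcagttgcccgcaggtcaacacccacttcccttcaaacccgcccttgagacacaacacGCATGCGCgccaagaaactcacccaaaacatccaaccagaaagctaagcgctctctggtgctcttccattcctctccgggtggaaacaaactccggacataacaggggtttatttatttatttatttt

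At the inner membrane 8 of 9 genes fell, and PAM16 did not pass. TIMM22 encodes the channel that inserts carriers. It was at 793, 779 and 706 normalized counts in the DMSO libraries and at 205, 310 and 237 after 22d, with no overlap (log2 fold change -1.61, SE 0.15, limma adjusted p = 2.39e-06). TIMM50, the presequence receptor of the TIM23 complex (chromosome 19, 39480412 to 39493785, plus strand, GRCh38 in GENCODE release 29), was at 6060, 6077 and 5756 normalized counts in the DMSO libraries and at 1911, 2417 and 2308 after 22d (log2 fold change -1.44, SE 0.11, limma adjusted p = 3.79e-07). The spread within each group of TIMM50 was small beside the gap between groups. TIMM23, the channel of the presequence translocase, was at 967, 777 and 779 normalized counts in the DMSO libraries and at 324, 393 and 332 after 22d, a log2 fold change of -1.26 (limma adjusted p = 6.16e-06). TIMM21, which links the TIM23 complex to the TOM complex and the respiratory chain, fell by 0.96, and TIMM44, which tethers the import motor to the channel, fell by 0.84, with DMSO at 3558 ± 268 and 22d at 1984 ± 80.2 normalized counts (mean ± SD of 3 libraries).

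TIMM23B is a near-identical copy of TIMM23 on chromosome 10, and the counting may have split reads between the copies, so both values are uncertain. TIMM23B fell by 0.54 ± 0.15 (SE) in log2 units at a limma adjusted p of 0.0077, with DMSO at 261 ± 18.7 and 22d at 180 ± 18.2 normalized counts (mean ± SD of 3 libraries). That call was lost with scaling by library totals (-0.32, adjusted p = 0.11). TIMM17A and TIMM17B encode alternative forms of another subunit of the translocase. TIMM17A was at 1436, 1503 and 1310 normalized counts in the DMSO libraries and at 891, 1086 and 995 after 22d (log2 fold change -0.52, SE 0.12, limma adjusted p = 0.0018). TIMM17B held 1693, 2027 and 1524 with DMSO and 1059, 1200 and 1172 with 22d (log2 fold change -0.60, SE 0.12, limma adjusted p = 0.00097). Neither gene's groups overlapped. The log2 ratio of TIMM17A to TIMM17B was -0.30 ± 0.12 in DMSO libraries and -0.21 ± 0.06 in 22d libraries (SD, n = 3 each), a difference of 0.09 within the spread between libraries (two-sided exact permutation test, p = 0.50, where 0.10 is the smallest possible).

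PAM16 encodes a subunit of the import motor. It held 7, 29 and 12 reads with DMSO and 10, 14 and 24 with 22d, and a change could not be resolved with so few reads (log2 fold change -0.11, SE 0.48). In GENCODE release 29 the readthrough gene CORO7-PAM16 covers 21.9% of its exon bases on the same strand. That share is over all annotated PAM16 transcripts together (2383 bases), and for a single transcript it can be larger. None of the 9 inner membrane genes was called higher by limma, edgeR or DESeq2, and 0 were higher at an unadjusted p under 0.05.

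In the matrix, the subunits of the presequence protease went in opposite directions. PMPCA and PMPCB encode the alpha and beta subunits of this protease, which works as a dimer. PMPCA was at 3855, 3974 and 3407 normalized counts in the DMSO libraries and at 1324, 1854 and 1845 after 22d, which gave a log2 fold change of -1.18 ± 0.13 (SE) and a limma adjusted p of 1.06e-05. PMPCB was at 1139, 1092 and 1156 normalized counts in the DMSO libraries and at 1397, 1457 and 1294 after 22d, which gave a log2 fold change of 0.29 ± 0.10 (SE) and a limma adjusted p of 0.029. The groups did not overlap for either gene. Leaving out 22d replicate 2 ended the call of PMPCB (limma adjusted p = 0.12), as did leaving out DMSO replicate 1 (0.077) or DMSO replicate 2 (0.074), and over all 6 such fits its log2 fold change ran from 0.25 to 0.34. The ratio of PMPCA to PMPCB was 3.38, 3.64 and 2.95 with DMSO and 0.948, 1.27 and 1.43 with 22d. This ratio was also picked after its values were seen and is a description. GRPEL1, the nucleotide exchange factor of the motor's HSP70, was at 2334, 2178 and 2126 normalized counts in the DMSO libraries and at 1274, 1449 and 1347 after 22d, and fell by 0.71 ± 0.10 (SE) in log2 units at a limma adjusted p of 7.95e-05.

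The promoters of this pair are shown because the subunits of one enzyme differed (PMPCA chr9:136410408-136410657 and PMPCB chr7:103297185-103297434, both plus strand). Capitals mark an E-box variant starting 81 bases upstream in PMPCA, and a CCAAT box starting 153 bases and an ETS element starting 17 bases upstream in PMPCB.
PMPCA: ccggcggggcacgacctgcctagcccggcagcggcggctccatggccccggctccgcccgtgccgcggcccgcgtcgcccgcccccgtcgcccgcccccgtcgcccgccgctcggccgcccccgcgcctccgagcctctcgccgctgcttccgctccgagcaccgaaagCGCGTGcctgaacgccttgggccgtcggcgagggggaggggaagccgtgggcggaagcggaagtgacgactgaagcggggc
PMPCB: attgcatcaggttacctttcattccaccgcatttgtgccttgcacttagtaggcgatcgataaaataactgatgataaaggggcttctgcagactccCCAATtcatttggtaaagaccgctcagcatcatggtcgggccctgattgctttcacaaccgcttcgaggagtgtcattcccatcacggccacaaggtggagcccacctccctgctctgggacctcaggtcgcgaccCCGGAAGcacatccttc

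**Figure D3:**
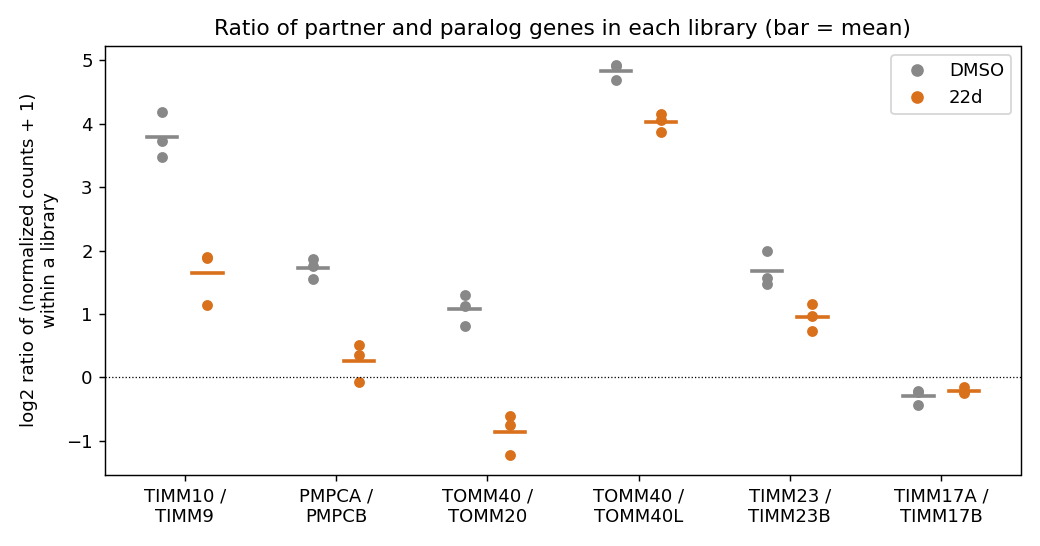
Log2 ratio of normalized counts (with 1 added) between partner or paralog genes within each library, grey for DMSO and orange for 22d; points are libraries and bars are means. The ratios TIMM10 to TIMM9 (3.79 to 1.64), PMPCA to PMPCB (1.73 to 0.26) and TOMM40 to TOMM20 (1.08 to -0.86) do not overlap between groups, while TIMM17A to TIMM17B (-0.30 to -0.21) does. Only TOMM40 to TOMM40L and TIMM17A to TIMM17B were tested, and the other ratios are descriptions. TOMM40 to TOMM20 sets the largest fall among the members against a gene that did not pass.

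Across the compartments the genes were compared by description only, since the groups are small lists of genes. The median log2 fold change was -0.93 over the 8 outer membrane genes, -0.84 over the 9 inner membrane genes and -1.13 over the 6 genes of the intermembrane space. Over all settings tried, the inner minus outer difference of the medians ran from -0.02 to 0.19, so its sign was not stable. Outer membrane values fell into a group from -1.92 to -0.87 and a group from -0.14 to 0.07 with no gene between them. Inner membrane values were spread from -1.61 to -0.52, with PAM16 at -0.11. With the small TIM genes counted to the inner membrane, 12 of 15 genes fell and the median was -0.96.

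Among the 22d libraries, replicate 1 stood apart in these genes. It was the lowest of the 3 in 18 of the 20 members that fell, TIMM44 and TOMM22 being the exceptions, and in 64.3% of all genes that fell. Without this library 20 members fell and 1 rose, and the median was -0.89.

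The promoters of 25 members were found in the RefSeq table, TOMM70A under the symbol TOMM70. No entry was used for TOMM5, TIMM8B and GRPEL1. In the 250 bases upstream, on both strands, the ETS element CCGGAAG occurred in 9 of 25 members (36.0%) and in 8.82% of all 27305 promoters. These promoters include genes that were not tested for expression. The windows of TIMM23 and TIMM23B are nearly the same sequence and were counted separately. Of the members with an ETS element, 5 were among the 17 with a promoter that fell (TIMM10, TIMM13, TIMM23, TIMM23B and TOMM6), and 4 were among the other 8 (PMPCB, TOMM70A, TIMM10B and TOMM20). CCAAT was found in 9 of 25 members (36.0%), close to the 33.0% of all promoters. Of these 9, 8 were among the 17 that fell, TOMM40, TIMM50, TIMM22 and TIMM17A among them, and 1 was PMPCB. The exact string GCATGCGC of the NRF1 element was found in 3 members (12.0%, against 2.81%), TIMM9, TOMM7 and PAM16, and in 0 of the 17 that fell. For every motif only the exact string was searched, so these counts leave out sites with other bases. The windows of TOMM40, which fell, and TOMM20, which did not pass, hold GCAGGCGC, which differs from that string by 1 base and was not counted. The E-box CACGTG was found in 1 of 25 members, TOMM20 (6.49% of all promoters), its variant CACGCG in TOMM34, PMPCA, TOMM6 and PAM16 (16.0%, against 9.62%), and the YY1 element AAGATGG in 1 of 25, TOMM40L (3.77% of all promoters). A match is a description of these letters and no evidence of binding.

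Genes that work beside these members were read from lists of further import, quality control and biogenesis genes. Of 30 other import and sorting genes 18 fell (60%, against 29.6% of all genes tested) and 1 rose (3.33%, against 28.5%). Their median log2 fold change was -0.49. With scaling by library totals 14 fell and the median was -0.27, while 2766 of all 13297 genes fell and their median was 0.22. HSPE1, the cochaperonin gene, fell by 1.67 with 60.6 to 274 normalized counts per library. A readthrough gene and the opposite-strand gene HSPD1 overlap 9.71% and 14.2% of its exon bases. MIPEP, a second matrix peptidase, fell by 1.17 and CHCHD4, the oxidoreductase that folds the small TIM proteins, fell by 1.06, with DMSO at 616 ± 50.2 and 22d at 295 ± 14.2 normalized counts (mean ± SD of 3 libraries). HSPA9, the HSP70 of the import motor, fell by 0.92, the chaperonin gene HSPD1 by 0.69, the outer membrane sorting gene SAMM50 by 0.65 and the motor gene DNAJC19 by 0.46. ATAD1, which extracts misplaced proteins from the outer membrane, was the exception and rose by 0.46, with DMSO at 553 ± 61.7 and 22d at 759 ± 37.4 normalized counts (mean ± SD of 3 libraries).

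Of 13 quality control genes, 6 fell (46.2%, against 29.6% of all genes tested) and 2 rose (15.4%, against 28.5%). Their median of -0.20 turned direction with the scaling, to 0.02 with library totals and 0.03 with quantile normalization. The matrix protease gene LONP1 fell by 1.36, with DMSO at 14292 ± 1797 and 22d at 5554 ± 709 normalized counts (mean ± SD of 3 libraries), the protease gene CLPP by 1.16 and CLPB, a disaggregase of the intermembrane space, fell by 1.04. OMA1, the stress-activated inner membrane protease gene, rose by 1.48 (SE 0.21, limma adjusted p = 6.75e-05): it was at 83.1, 73.4 and 125 normalized counts in the DMSO libraries and at 313, 244 and 222 after 22d, without overlap. PARK2, the gene of the ubiquitin ligase parkin, rose as well (limma adjusted p = 0.00071), with 3, 2 and 2 reads in the DMSO libraries and 29, 26 and 13 in the 22d libraries, too few to size the rise. Of 12 tested biogenesis factors 8 fell (66.7%, against 29.6% of all genes tested) and 0 rose (against 28.5%). Their median was -0.68, and 0 were higher in edgeR, in DESeq2 or at an unadjusted p under 0.05. C10orf2, the mitochondrial helicase gene, fell by 1.46, the coactivator gene PPRC1 fell by 1.45, the mitochondrial RNA polymerase gene POLRMT by 0.83, the transcription factor gene NRF1 by 0.75 and TFAM, which packages mitochondrial DNA, by 0.63. PPARGC1A was not tested, with 0 to 2.52 normalized counts per library.

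**Figure D4:**
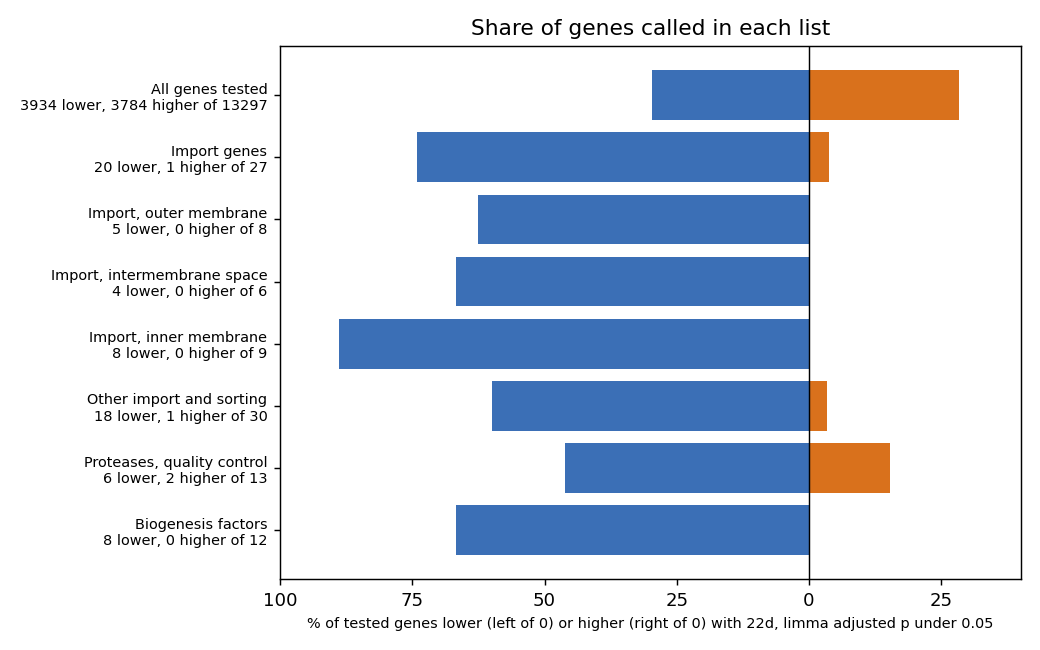
Share of tested genes that were lower (blue, left of 0) or higher (orange, right of 0) with 22d at a limma adjusted p under 0.05, for all genes tested and for each list, with the counts beside the names. Bars to the left reach 74.1% for the import genes and 88.9% for those of the inner membrane, against 29.6% for all genes tested.

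Reads of overlapping genes limit some of these values. The labels name a library kit that does not mark strand, and in GENCODE release 29 an opposite-strand gene covers 30.1% of the exon bases of TIMM8B (NKAPD1), 20.1% of TOMM40L (NR1I3), 14.9% of TIMM9 (KIAA0586) and 13.0% of PMPCB (DNAJC2). TIMM13 is overlapped by TMPRSS9 (15.9%) on the opposite strand and LMNB2 (13.0%) on its own strand. On the same strand, the annotated gene AL365205.1 covers all exon bases of TOMM6, AL138752.2 covers 14.3% of TOMM5 and AC084337.2 covers 13.5% of TIMM10B. How the authors' counting treated such reads is not given in the sources used here. In the authors' deposited table, 20 members had an adjusted p under 0.05 and a negative log2 fold change and 1, PMPCB, a positive one.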

How the data were processed

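RNA of 6 MV4-11 libraries was sequenced, 3 per group. The submitters' processing notes list DESeq2, HTSeq, STAR, cutadapt and FastQC and the build hg38; versions, annotation and strand setting are not given in the sources used here. Per the file headers, the authors' table holds a normalized signal per library, its mean, the log2 fold change with its error, a test score equal to their quotient, and the p-value with its adjusted value. Columns were matched to libraries by arm and number. Each deposited value was a whole multiple of the value of 1 read (100% within 0.001), so whole reads could be recovered.

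Changes were tested with limma 3.58.1 (trend) in R 4.3.3 on log2(value + 1), over 13297 genes (mean 10 or more), with Benjamini-Hochberg adjustment over all of them; adding 1 understates changes of weakly expressed genes. The fit was checked on simulated data in which far fewer genes were changed than were called here. That check does not bear on the choice of scaling. Alternatives were edgeR 4.0.16 (quasi-likelihood, TMM) and DESeq2 1.42.0 on the recovered counts, other scalings, pseudocounts and filters, a replicate block, and leaving out each library; edgeR called 7723 genes and limma 7718. Figures and ratios used Python 3.11.15.

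In all, 1 member was not tested. Members and lists were chosen with earlier results of these data known. Named genes were all members and, of each other list, the 3 called genes with the largest fall and rise plus HSPA9, HSPD1, DNAJC19, SAMM50, CHCHD4, NRF1 and TFAM. Positions came from GENCODE release 29 and promoters from RefSeq, both GRCh38. Shares of exon bases are over all annotated transcripts of a gene together.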

Additional observations from a re-analysis of the deposited data

How the results depend on the processing

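The 20 import genes that fell numbered 19 or 20 in every setting tried, and with 1 library left out they numbered 20 each time. The count of rises, 1 as reported, varied: 3 members rose with scaling by library totals and 3 with quantile normalization, 0 with the replicate block, and 0 to 1 with 1 library left out. Of 404 member values under these settings 395 kept their side of the threshold, 5 lost and 4 gained a call, all in 5 genes (TIMM23B, PMPCB, TIMM9, TOMM7 and TOMM20), and 0 called values changed sign. Outer membrane genes called higher numbered 1 with library totals and 2 with quantile normalization. Other import and sorting genes called higher numbered 4 and 3 (called lower, 14 and 18), quality control genes 4 with library totals and 1 at a minimum mean of 50, where PARK2 is no longer tested, and biogenesis factors 2 and 1. Apart from that filter the cause was not tested. The replicate numbers did not pair the libraries: deviations of same-numbered libraries correlated at -0.03, -0.02 and -0.10, and no library correlated best with its own number across groups. With the replicate block 7419 genes were called. Few reads limit PAM16, TOMM20L, PARK2 and PPARGC1A, and why they held so few was not tested.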
